A study of Mus musculus with 20 samples.

Results

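*Cdkn2a*, the gene for the cell cycle inhibitor p16 and the p53 activator p19ARF, and 9 other genes linked to cell cycle arrest were followed by symbol through the corneal epithelium of mice at 4 ages. The 10 genes were *Cdkn2a* and *Cdkn2b* of the INK4-ARF locus, *Rb1*, *Ccnd1* and *Cdkn1b* around the retinoblastoma protein, *Trp53*, *Mdm2*, *Cdkn1a* and *Gdf15* of the p53 arm, and *Lmnb1* of the nuclear lamina. All 10 were among the 24552 genes measured. Of the 11288 genes whose mean normalized count over all libraries reached 10, the level set for testing, 9 belonged to this group, and *Gdf15* lay below it with a mean of 1.47.

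The epithelium came from naive, wild-type female C57BL/6J mice, and each library held the RNA of both corneas of 1 animal, scraped off with a dull blade. Per the study's methods the mice came from more than 1 supplier and some were aged in house, and the sources used here do not give which animals came from where. There were 5 libraries each from young (2-month, labelled 2 to 3 months), 12-month (12 to 13), 18-month (18 to 19) and 24-month (24 to 25) mice, none of them wounded or treated. The libraries were made from the 3′ end of polyadenylated RNA and held between 6699383 and 10762360 reads assigned to genes.

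A cell that is to divide makes D-type cyclins, which join CDK4 or CDK6 and phosphorylate the retinoblastoma protein, so that E2F factors can switch on the genes of DNA replication. The INK4 proteins p16 and p15 block these kinases, p27 and p21 block cyclin-kinase complexes more widely, and p19ARF holds back Mdm2 and thereby stabilizes p53, which in turn switches on *Cdkn1a*. A rise of *Cdkn2a* and a loss of *Lmnb1* are used as signs of cellular senescence in many mouse tissues. The cornea is covered by a stratified epithelium that is renewed throughout life by division of its basal cells.

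The INK4-ARF locus lies on chromosome 4 of the mouse genome (build GRCm38), and its genes are read from the minus strand. RefSeq places *Cdkn2a* at chr4:89274473-89294619 and *Cdkn2b* at chr4:89306289-89311032. *Cdkn2a* has 2 transcripts with separate starts 12461 bases apart, one for p16 and one for p19ARF, whose first exons share no base. Their other exons coincide over 575 bases, which is 67.5% of the p16 transcript and 64.2% of the p19ARF transcript in the GENCODE annotation, and their 3′ ends lie 70 bases apart. The libraries were primed at the 3′ end, so a *Cdkn2a* read cannot be given to p16 or to p19ARF. *Cdkn2b*, the gene for p15, starts and ends outside *Cdkn2a*, 11645 bases beyond the p19ARF start, and its reads are separate. It lies inside the long non-coding RNA *Gm12610*, which had between 0 and 11 reads in every library.

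**Figure D1:**
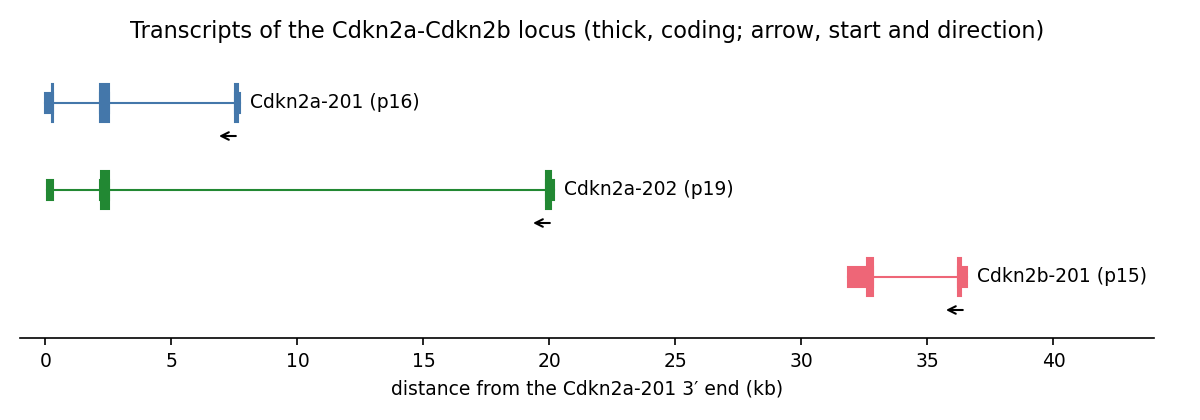
Transcripts of the *Cdkn2a*-*Cdkn2b* locus drawn to scale from the GENCODE annotation, with the distance from the 3′ end of the p16 transcript in kb on the horizontal axis. Thick boxes are coding, thin boxes are untranslated and arrows give the direction of transcription. Both *Cdkn2a* transcripts end in the same exons and start 12461 bases apart.

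The bases just before the 3 starts of the locus are shown because *Cdkn2a* counts join 2 starts whose upstream sequences differ widely. They are given 5′ to 3′ on the minus strand, from RefSeq (GRCm38.p6), without bases that GENCODE counts as transcribed. Capitals mark the GC box, the letters GGGCGG or, on the other strand, CCGCCC, which is the motif that Sp1 family factors bind.
Before the p19ARF start, chr4:89294654-89294869: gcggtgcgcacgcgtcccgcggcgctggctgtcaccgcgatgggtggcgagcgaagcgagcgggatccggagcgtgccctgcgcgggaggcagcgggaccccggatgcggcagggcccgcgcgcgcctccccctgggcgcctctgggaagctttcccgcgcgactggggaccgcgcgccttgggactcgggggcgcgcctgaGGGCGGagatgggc
Before the p16 start, chr4:89282193-89282442: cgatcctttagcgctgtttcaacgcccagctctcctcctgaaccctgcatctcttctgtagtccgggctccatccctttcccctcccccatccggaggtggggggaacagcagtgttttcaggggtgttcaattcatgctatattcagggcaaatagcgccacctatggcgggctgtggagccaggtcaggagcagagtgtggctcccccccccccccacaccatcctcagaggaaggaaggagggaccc
Before the *Cdkn2b* start, chr4:89311040-89311282: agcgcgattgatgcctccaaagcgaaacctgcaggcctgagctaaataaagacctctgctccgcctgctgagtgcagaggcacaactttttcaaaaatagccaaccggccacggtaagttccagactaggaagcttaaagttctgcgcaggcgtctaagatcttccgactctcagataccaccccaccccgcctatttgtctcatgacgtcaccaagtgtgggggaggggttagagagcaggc
Over the full 250 bases before each RefSeq start, the p19ARF window held 40 CG dinucleotides and 2 GC boxes, at a GC content of 78.4%. The p16 window held 7 CG dinucleotides and 0 GC boxes at 60.0% GC, and the *Cdkn2b* window 12 and 0 at 53.6%. Of 32851 such windows in the genome, 32.7% held a GC box, the median number of CG dinucleotides was 6, and 98.7% held fewer than the p19ARF window. These matches describe the letters of the windows and no binding was measured.

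Among the tested members, *Cdkn2a* had the largest change from young mice at each age. It was close to absent in young epithelium, with 0, 1, 4, 1 and 4 reads in libraries 1 to 5. At 12 months the 5 libraries held 17, 11, 9, 6 and 16 reads. At 18 months they held 29, 52, 34, 27 and 40 reads, and at 24 months 20, 44, 25, 23 and 33. Every aged library thus had more *Cdkn2a* reads than every young library, and every 18-month library more than every 12-month library, while the 18- and 24-month libraries overlapped. Libraries that did not overlap with young ones, in either direction, were seen for 2.81%, 2.05% and 1.98% of tested genes at 24, 18 and 12 months. The young library without a read had 8587953 reads in all, so that 0 reads allows up to 0.349 reads in 1000000.

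**Figure D2:**
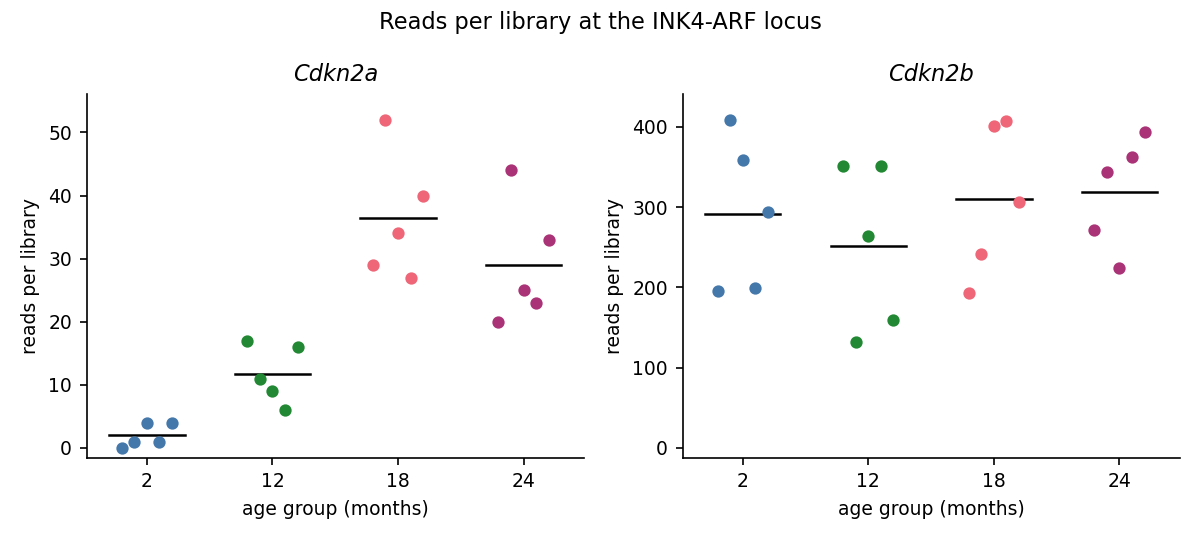
Reads of *Cdkn2a* and *Cdkn2b* in each of the 20 libraries (points) by age group in months, with the group mean as a line and reads per library on linear vertical axes that differ between the panels. *Cdkn2a* ran from 0 to 4 reads in young libraries and from 20 to 52 at 18 and 24 months, whereas *Cdkn2b* spanned 132 to 409 reads with overlapping groups.

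After division by the library's size factor, the mean *Cdkn2a* level was 1.85 ± 1.75 normalized counts in young, 13.2 ± 5.56 in 12-month, 37.2 ± 14.5 in 18-month and 26.0 ± 7.15 in 24-month epithelium (SD, n = 5). The age groups ran in the order young, 12-month, 24-month, 18-month. With limma across all 11288 genes, *Cdkn2a* rose by a log2 fold change of 3.45 at 24 months (SE 0.57, 95% interval 2.29 to 4.61, adjusted p = 0.000785) and by 3.92 at 18 months (SE 0.57, 2.75 to 5.08, adjusted p = 0.000300). At 12 months the log2 fold change was 2.46 (SE 0.57, 1.30 to 3.63, adjusted p = 0.0369). These changes are on the scale log2(normalized count + 1), which understates the change of a gene this low.

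Summed over the 5 libraries, 10 young reads stood against 59, 182 and 145 reads at 12, 18 and 24 months. Per 1000000 reads that is 0.223 in young, 1.53 at 12 months, 4.23 at 18 months and 3.24 at 24 months. With the summed reads divided by the summed size factors instead, the ratios to young were 6.90 (95% exact counting interval 3.50 to 15.1), 19.1 (10.2 to 40.5) and 14.0 (7.41 to 29.8). The intervals cover counting error only, not the spread between mice, and the width comes from the 10 young reads. *Cdkn2a* passed the level for testing only through its aged libraries, so its being tested at all depended on its rise.

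The 18- and 24-month calls held with each of the 10 libraries compared left out in turn, at adjusted p up to 0.00140 and up to 0.00544. The 18-month library with the highest level, replicate 2, also had the lowest median correlation with the other libraries (0.904, against 0.910 to 0.943), and without it the 18-month log2 fold change was 3.72 (adjusted p = 0.00140). The 12-month call was less secure. It was lost in 7 of 10 fits that left out 1 library, namely young replicate 1, 2 or 4 or 12-month replicate 1, 2, 3 or 5, with adjusted p between 0.0591 and 0.118 in those 7. With voom on the recovered reads the adjusted p was 0.0509 at 24 months and 0.333 at 12 months.

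Between aged groups *Cdkn2a* passed in no comparison. The log2 difference was 1.45 for 18-month vs. 12-month (SE 0.57, interval 0.29 to 2.62, adjusted p = 0.637), the pair of ages whose libraries did not overlap. Non-overlapping libraries in either direction were seen for 1.13% of tested genes in that comparison. For 24-month vs. 12-month it was 0.99 (interval -0.18 to 2.15, adjusted p = 0.417), and for 24-month vs. 18-month -0.47 (interval -1.63 to 0.70, adjusted p = 0.969). In the order of levels, 12- and 24-month libraries overlapped, as did 24- and 18-month libraries, and the intervals of both differences included 0.

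*Cdkn2b*, which lies beside *Cdkn2a* and encodes the related INK4 inhibitor p15, was read steadily at every age. The young libraries held 196, 409, 359, 199 and 294 reads and the 12-month libraries 352, 132, 264, 352 and 160. The 18-month libraries held 193, 242, 401, 408 and 306 reads, and the 24-month libraries 272, 344, 224, 363 and 394. High and low libraries occurred in each group, and every pair of ages overlapped. The mean was 268 ± 53.1 normalized counts in young, 267 ± 76.7 at 12 months, 300 ± 47.7 at 18 months and 289 ± 59.2 at 24 months (SD, n = 5).

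Against young, the log2 difference of *Cdkn2b* was 0.11 at 24 months (95% interval -0.30 to 0.51, adjusted p = 0.910), 0.17 at 18 months (-0.24 to 0.58, adjusted p = 0.947) and -0.03 at 12 months (-0.44 to 0.38, adjusted p = 0.984). Its upper bounds lay below the lower bounds of *Cdkn2a* at each age. Of the reads at the 2 genes, *Cdkn2a* took 0 to 1.34% in young libraries, 1.68 to 9.09% at 12 months, 6.21 to 17.7% at 18 months and 5.96 to 11.3% at 24 months. These shares follow the *Cdkn2a* reads, which join p16 and p19ARF, and no levels of the transcripts of the 2 genes are compared from them.

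The genes next to the locus were not called or held almost no reads. *Mtap*, the nearest protein-coding gene on one side, which encodes an enzyme of methionine salvage, had 226 ± 44.1 normalized counts in young epithelium and log2 differences of 0.04, 0.24 and -0.09 at 12, 18 and 24 months (adjusted p = 0.970, 0.885 and 0.923). On the other side *Dmrta1* had 0 to 9 reads in aged libraries and *Zfp352* 0 to 13, and neither was tested. The precursor of *Mir31* had 0 reads in all 20 libraries.

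Of the 9 members tested, *Cdkn2a* was the 1 called in each comparison with young mice, where a call is an adjusted p of at most 0.05 and a change of at least 1.2-fold. Over all genes tested, 0.78%, 0.673% and 0.532% were called at 24, 18 and 12 months. *Cdkn2a* was among the 9 only through its aged libraries, so its call is not independent of its being tested. With no filter its adjusted p from limma was 0.00152, 0.000651 and 0.0533 at 24, 18 and 12 months, so the 12-month call was then lost. The median log2 difference of the 9 members was 0.11, 0.08 and 0.00 at 24, 18 and 12 months, beside 0.01, 0.00 and -0.01 over all genes tested. The median size of the difference, whatever its direction, was 0.14, 0.14 and 0.23 for the members and 0.20, 0.18 and 0.19 for all genes.

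In the comparisons among aged mice 0 members were called by limma. At an unadjusted p below 0.05 there was 1 member, *Cdkn2a*, for 18-month vs. 12-month and 0 for the other pairs of aged groups, and voom gave the same counts. Over all genes that share was 14.7% for 24-month vs. 12-month, 7.43% for 18-month vs. 12-month and 5.31% for 24-month vs. 18-month. Calls over all genes came to 0.195% for 24-month vs. 12-month, 0.00886% for 18-month vs. 12-month and 0% for 24-month vs. 18-month.

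**Figure D3:**
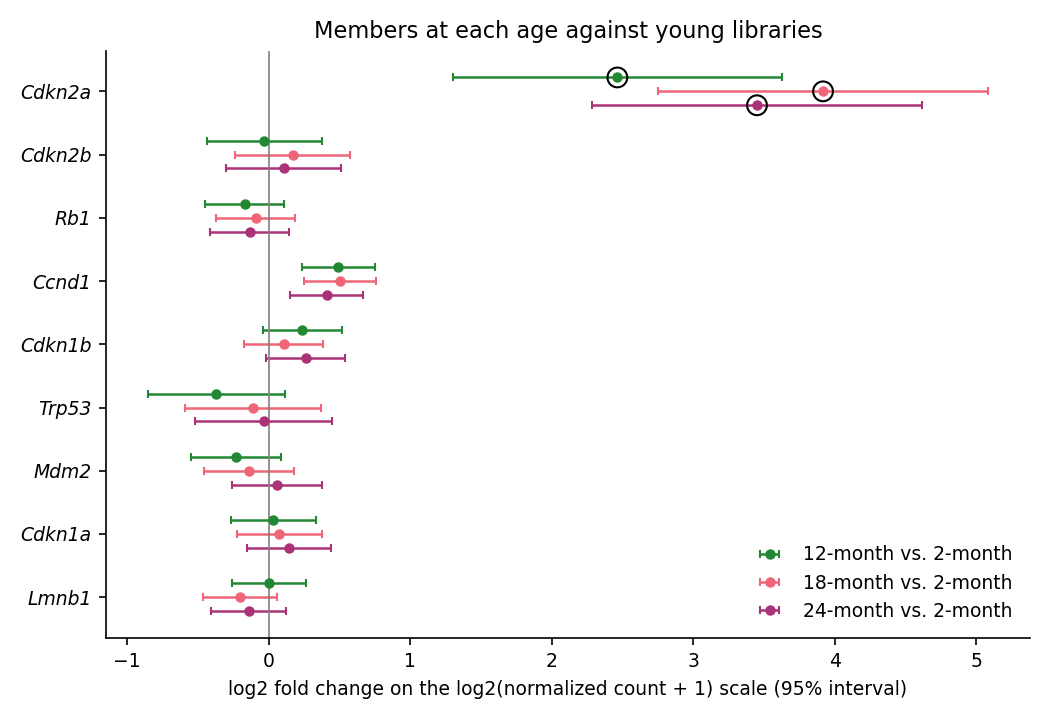
Log2 fold change of the 9 tested members at 12, 18 and 24 months against young libraries, on the scale log2(normalized count + 1), with 95% intervals from limma (5 libraries per age). Circled points were called. *Cdkn2a* lay at 2.46, 3.92 and 3.45, *Ccnd1* was above 0 in all intervals without being called, and the intervals of the others included 0.

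In the RB arm, *Ccnd1* encodes cyclin D1, the partner of CDK4 and CDK6 that p16 opposes, and its 3′ end on chromosome 7 (chr7:144929931-144939831) overlaps *Lto1* on the opposite strand. The strand setting of the counting is not given in the sources used here. Young libraries 1 to 5 held 3249, 4091, 4773, 4868 and 3892 normalized counts, and 12-month libraries 6889, 5268, 6612, 6061 and 4561. At 18 months the values were 5307, 5696, 6906, 6079 and 5476, and at 24 months 6520, 5691, 5064, 5606 and 4724. All 18-month libraries lay above all young ones, and 4 of 5 libraries did so at 12 and at 24 months. Over all tested genes, 2.05% had 18-month libraries that did not overlap with young ones, in either direction.

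The group means of *Ccnd1* were 4175 ± 667 in young, 5878 ± 962 at 12 months, 5893 ± 636 at 18 months and 5521 ± 685 at 24 months (SD, n = 5). The log2 difference from young was 0.49 at 12 months (SE 0.12, adjusted p = 0.0673), 0.51 at 18 months (SE 0.12, adjusted p = 0.0531) and 0.41 at 24 months (SE 0.12, adjusted p = 0.157), so *Ccnd1* did not pass at any age. The 18-month adjusted p was 0.0471 with voom, 0.0469 with a pseudocount of 10, 0.0403 without young replicate 3 and 0.0379 without young replicate 4, and at 12 months it was 0.0231 without 12-month replicate 5. The aged groups differed from each other by log2 0.10 at most.

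*Rb1*, the gene for the retinoblastoma protein (chr14:73192858-73325951, with its 3′ end overlapping *Rcbtb2* on the opposite strand), varied little. It ranged over 423 to 531 normalized counts in young, 345 to 471 at 12 months, 393 to 473 at 18 months and 365 to 536 at 24 months. The ranges overlapped, although 4 of 5 24-month libraries lay below all young ones. The log2 differences from young were -0.17 at 12 months, -0.09 at 18 months and -0.13 at 24 months, with 95% intervals of -0.45 to 0.11, -0.37 to 0.19 and -0.41 to 0.15 (adjusted p = 0.772, 0.975 and 0.801).

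*Cdkn1b* encodes p27, an inhibitor of cyclin-CDK2 that is abundant in resting cells (chr6:134920401-134925525). Its means were 1959 ± 388 normalized counts in young, 2281 ± 320 at 12 months, 2091 ± 324 at 18 months and 2310 ± 182 at 24 months (SD, n = 5). Young replicate 1, with 1274, lay far below the other young libraries at 2064 to 2205, and 12-month replicate 5, with 2840, above the other 12-month libraries at 2026 to 2191. The log2 differences from young were 0.24, 0.11 and 0.26 at 12, 18 and 24 months, with 95% intervals of -0.04 to 0.52, -0.17 to 0.39 and -0.02 to 0.54 (adjusted p = 0.621, 0.956 and 0.540).

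In the p53 arm, *Trp53* itself (chr11:69580348-69591873) had 73.4, 112, 149, 137 and 126 normalized counts in young libraries and 127, 78.9, 81.4, 102 and 70.1 at 12 months. The 18-month libraries had 90.3, 142, 114, 95.9 and 103, and the 24-month libraries 121, 81.3, 126, 121 and 125. Each age held libraries inside the range of the young ones. The log2 differences were -0.37, -0.11 and -0.04 at 12, 18 and 24 months (SE 0.23 each), with 95% intervals of -0.85 to 0.11, -0.59 to 0.37 and -0.52 to 0.45 (adjusted p = 0.669, 0.983 and 0.983). At this spread changes of *Trp53* within those intervals were not excluded, and the activity of p53 is set mainly by the stability of the protein, which was not measured.

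*Mdm2*, the ubiquitin ligase that removes p53 and is itself a p53 target (chr10:117688875-117710758), had 596 ± 110 normalized counts in young, 506 ± 67.1 at 12 months, 542 ± 92.3 at 18 months and 621 ± 112 at 24 months (SD, n = 5). Its libraries overlapped at every pair of ages. The log2 differences from young were -0.23, -0.14 and 0.06 at 12, 18 and 24 months, with 95% intervals of -0.54 to 0.09, -0.45 to 0.18 and -0.26 to 0.38 (adjusted p = 0.697, 0.946 and 0.940). For 24-month vs. 12-month it was 0.29 (-0.03 to 0.60, adjusted p = 0.388).

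*Cdkn1a*, the p53 target that encodes the general CDK inhibitor p21 (chr17:29090979-29100722), was well covered by reads. Young libraries had 3579, 3312, 3460, 3224 and 2616 normalized counts, and 12-month libraries 2589, 3837, 3173, 3185 and 3871. At 18 months the values were 4014, 2611, 4231, 3792 and 2682, and at 24 months 4001, 3563, 4422, 3186 and 2838. The 18-month libraries fell to both sides of the young range, with 3 above it and 1 below, and the 24-month group reached above it in 2 libraries. The log2 differences from young were 0.03, 0.08 and 0.14 at 12, 18 and 24 months (SE 0.15 each), with upper 95% bounds of 0.33, 0.37 and 0.44 (adjusted p = 0.972, 0.978 and 0.799).

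*Gdf15*, a secreted stress cytokine that p53 and the integrated stress response induce (chr8:70629393-70632470), was at the floor of detection. Young libraries held 6, 1, 3, 0 and 0 reads, 12-month libraries 0, 0, 0, 0 and 3, 18-month libraries 0, 2, 0, 1 and 2, and 24-month libraries 6, 0, 1, 4 and 0. A count of 0 allowed up to 0.284 to 0.448 reads in 1000000, depending on the library. The exact two-sided permutation test on the log2 values against young gave p = 0.873, 0.667 and 0.405 at 24, 18 and 12 months, where 5 libraries against 5 allow no p below 0.00794. No difference was detected, and at this depth a small one could not have been seen.

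*Lmnb1* on chromosome 18 encodes lamin B1, a filament protein of the nuclear lamina. Young libraries had 3350, 2638, 2544, 2981 and 2819 normalized counts, and 12-month libraries 2266, 2958, 2444, 3678 and 3169. At 18 months the values were 3016, 2504, 2246, 2325 and 2363, and at 24 months 2169, 2822, 3015, 2257 and 2778. At 18 months 4 of 5 libraries lay below all young libraries, but the fifth, with 3016, lay among the highest young ones, and at 24 months 2 of 5 lay below. The log2 differences from young were 0.00, -0.20 and -0.14 at 12, 18 and 24 months (SE 0.13 each), with 95% intervals of -0.26 to 0.27, -0.47 to 0.06 and -0.40 to 0.12 (adjusted p = 0.999, 0.827 and 0.764).

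**Figure D4:**
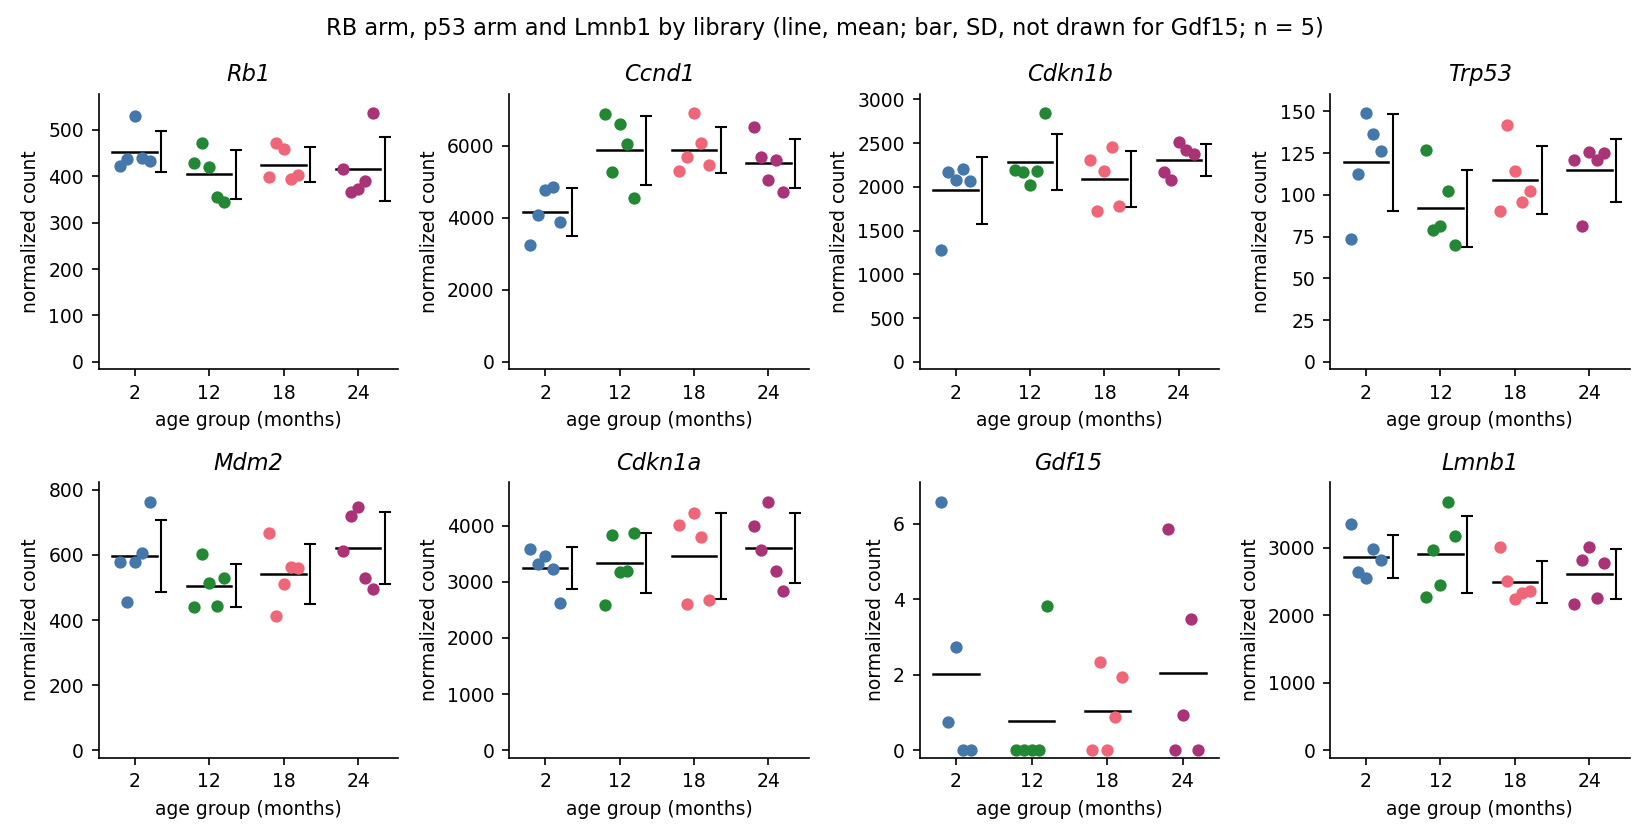
Normalized counts of the RB arm, the p53 arm and *Lmnb1* in each library (points) by age group in months, with the group mean (line) and SD (bar, n = 5; none is drawn for *Gdf15*, where many libraries are at 0). Vertical axes are linear and differ between panels. Age groups overlapped in every panel except *Ccnd1* at 18 months, where the 5 libraries lay between 5307 and 6906, above the young range of 3249 to 4868.

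The genes around these members were followed in lists chosen for their role. Over all genes tested, 9.97%, 7.18% and 9.56% had an unadjusted p below 0.05 against young at 24, 18 and 12 months, which is the background for the counts at that level below. Among the other CDK inhibitors (*Cdkn1c*, *Cdkn2c*, *Cdkn2d* and *Cdkn3*), 0 of 4 were called at any age by limma, and 1 had an unadjusted p below 0.05 at 24 months, with 0 at 18 and 12 months. *Cdkn2d*, the INK4 gene for p19INK4D, had 165 normalized counts at 24 months and 102 in young (log2 difference 0.75, SE 0.30, adjusted p = 0.360). *Cdkn1c*, which encodes p57, differed by -0.62 (SE 0.73, adjusted p = 0.830).

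Among the remaining D cyclins and their kinases, 1 of 4 was called, at 12 months. At an unadjusted p below 0.05 there were 0, 1 and 1 of 4 at 24, 18 and 12 months. *Ccnd2*, the gene for cyclin D2, rose from 3069 ± 641 normalized counts in young to 4897 at 12 months (log2 fold change 0.70, SE 0.15, adjusted p = 0.0274), with all 12-month libraries above the young range. Non-overlap of 12-month with young libraries, in either direction, was seen for 1.98% of tested genes. At 18 and 24 months its log2 differences were 0.45 and 0.20 (adjusted p = 0.344 and 0.715).

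Downstream of the retinoblastoma protein, 0 of 16 genes of the RB family and E2F list and 0 of 5 of the E and A cyclins with *Cdk2* were called at any age. Their median log2 differences at 24 months were 0.05 and 0.16. At an unadjusted p below 0.05 there were 0 of 16, and 1 of 5 at 24 months, which was *Cdk2*, the kinase that p21 and p27 inhibit (log2 difference 0.53, SE 0.23, adjusted p = 0.408). Of 24 proliferation markers, 0 were called, with 1 at an unadjusted p below 0.05 at 24 months, 1 at 18 months and 0 at 12 months. Their median log2 difference was 0.24, -0.10 and -0.18 at 24, 18 and 12 months, with 16, 10 and 5 of 24 above 0. For 24-month vs. 12-month, 7 of 24 had an unadjusted p below 0.05, beside 14.7% of all genes, and 20 of 24 were above 0. The mitotic kinases *Aurka* and *Bub1* had the largest differences at 24 months, 0.60 (SE 0.39) and 0.53 (SE 0.34), with adjusted p = 0.644 and 0.643.

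Of 30 p53 target genes, 23 were tested and 0 were called at any age. At an unadjusted p below 0.05 there were 2, 0 and 4 at 24, 18 and 12 months. The median log2 difference was 0.03, -0.04 and -0.10 at 24, 18 and 12 months. *Psrc1*, the gene for a spindle protein, differed most at 24 months, by 1.2 (SE 0.44, adjusted p = 0.282), followed by the death receptor gene *Tnfrsf10b* at 0.88 (SE 0.70, adjusted p = 0.728). Of 11 p53 regulators measured, 0 were called, and 1 had an unadjusted p below 0.05, *Chek1* at 18 months (log2 difference -0.79, adjusted p = 0.554).

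The regulators of the *Cdkn2a* locus include the Polycomb proteins that silence it, such as *Ezh2*, *Bmi1* and *Cbx7*, and activators such as *Ets1*. Of 24 listed genes 21 were tested, and 0 were called at any age, with 2, 2 and 3 at an unadjusted p below 0.05 at 24, 18 and 12 months. Their median log2 difference was 0.02, 0.04 and -0.07. *Cbx7* had 146 normalized counts at 24 months and 97.2 in young (log2 difference 0.63, SE 0.29, adjusted p = 0.457). Among 10 genes of the lamins and the nuclear envelope 0 were called, with 1 at an unadjusted p below 0.05 against young, *Sun2* at 24 months (log2 difference 0.41, adjusted p = 0.501). For 24-month vs. 12-month, 6 of 10 had an unadjusted p below 0.05, beside 14.7% of all genes. Their median log2 difference was 0.32, with 8 of 10 above 0.

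Around *Gdf15*, 7 of 10 genes of the stress response list were tested and 1 was called at each age. *Vldlr*, a lipoprotein receptor gene, rose from 65.8 ± 26.2 normalized counts in young by a log2 fold change of 1.29 at 12 months, 1.45 at 18 months and 1.33 at 24 months (SE 0.29 each, adjusted p = 0.0346, 0.00833 and 0.0208). The median of the list lay at -0.10 at 24 months, -0.46 at 18 months and -0.32 at 12 months, and 0 of the other 6 tested genes were called. At an unadjusted p below 0.05 there were 1, 3 and 2 of 7 at 24, 18 and 12 months, *Vldlr* among them each time.

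Of 30 secreted factors of the senescence-associated type, such as *Il6*, 11 reached the level for testing, 0 of them rose and 2 fell. The median log2 difference of the 11 was -0.19, 0.01 and -0.68 at 24, 18 and 12 months, with 5, 6 and 2 above 0 and 3, 1 and 4 at an unadjusted p below 0.05. *Igfbp2*, the gene for an IGF binding protein, had a log2 fold change of -1.7 at 24 months (SE 0.35, adjusted p = 0.0123). *Igfbp5* decreased by 0.68 at 12 months (SE 0.14, adjusted p = 0.0128) and by 0.57 at 24 months (SE 0.14, adjusted p = 0.0415). At 18 months neither passed, with adjusted p = 0.175 for *Igfbp2* and 0.703 for *Igfbp5*.

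**Figure D5:**
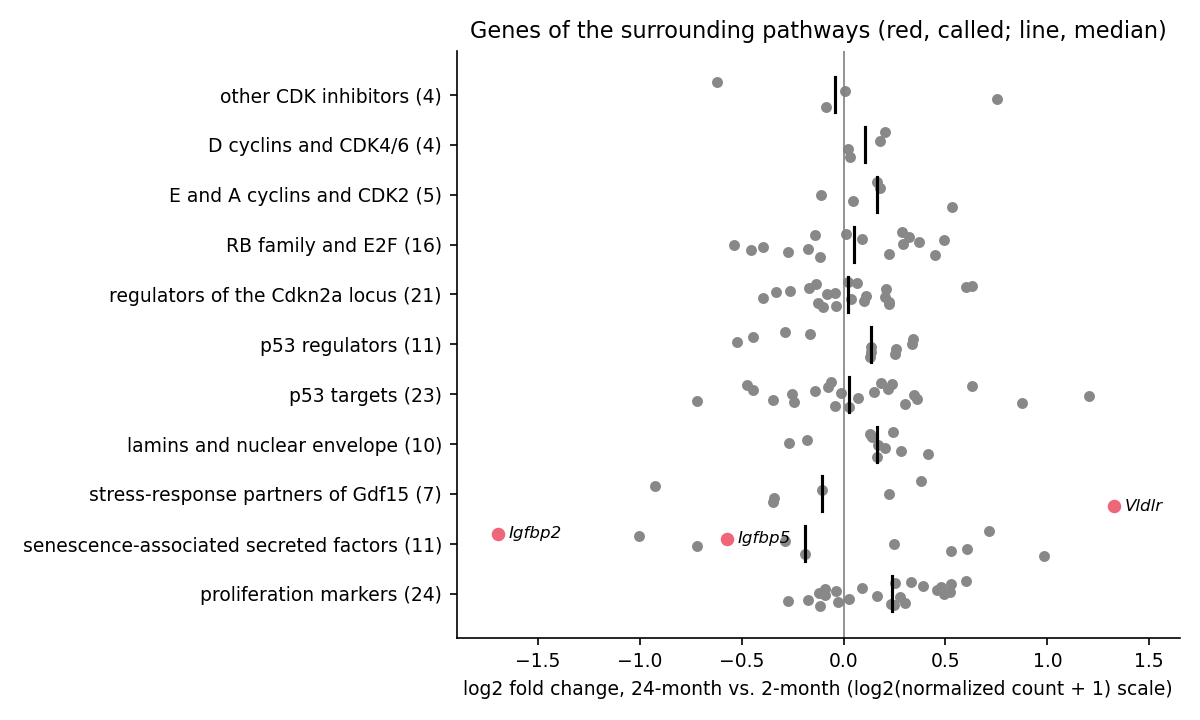
Log2 fold change of each tested gene (points) of 11 pathway lists for 24-month vs. 2-month libraries, on the scale log2(normalized count + 1), with the list median as a black line and the number of tested genes in parentheses. Red points were called. *Vldlr* at 1.33, *Igfbp2* at -1.7 and *Igfbp5* at -0.57 were the only called genes, and list medians lay between -0.19 and 0.24.

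The patterns most like that of *Cdkn2a* over the 20 libraries, by Pearson correlation of log2 values, belonged to *Gstt2* (0.85), *Pdyn* (0.84), *Car5b* (0.84), *Rnf149* (0.80) and *Prnp* (0.79). The most opposed were *Ifit1bl1* (-0.86), *Ccdc141* (-0.82) and *Sparc* (-0.81). These values describe libraries that share their age groups. Once the mean of each age was taken off, the correlations of the 5 like genes were 0.17 to 0.27, and those of the 3 opposed genes 0.11 to -0.42. *Pdyn*, which encodes the opioid peptide precursor prodynorphin, had log2 fold changes of 1.89, 2.02 and 1.99 at 12, 18 and 24 months, and thus stood as high at 12 months as later. *Rnf149*, a ubiquitin ligase gene, stood at 0.16, 0.50 and 0.46 and was called at 18 and 24 months (adjusted p = 0.0170 and 0.0301), but not at 12 (adjusted p = 0.696).

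Among the members, *Ccnd1* had the correlation with *Cdkn2a* farthest from 0, at 0.63 over the 20 libraries and -0.04 within ages. For the other 7 tested members it lay between -0.38 for *Lmnb1* and 0.37 for *Cdkn1b*. Within ages the members ranged from -0.34 for *Cdkn1a* to 0.32 for *Trp53*. With the few reads of *Cdkn2a*, no relation is read from these values.

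Markers of stromal keratocytes and conjunctiva in the scraped tissue also included genes that fell with age. All 10 corneal epithelial markers, *Krt12* and *Pax6* among them, were present, with a summed level of 455807 to 578350 normalized counts in young and 494304 to 533921 at 24 months, and 0 were called at any age. Of 10 markers of stromal keratocytes 9 were tested, and 5, 4 and 3 fell at 24, 18 and 12 months. Their sum was 1800 to 4907 in young, 728 to 1752 at 12 months, 710 to 1495 at 18 months and 376 to 1189 at 24 months, so it did not overlap between young and any aged group. *Ptgds* was at 0 in all young and all 24-month libraries. The part of these markers in the rise of *Cdkn2a* was not tested, and in scraped tissue a changed share of a cell type and a changed amount of RNA per cell cannot be told apart.

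Of 8 conjunctival markers 6 were tested, and 1, 2 and 2 fell at 24, 18 and 12 months, with a sum of 28978 to 50559 in young and 25099 to 30257 at 24 months. Immune markers had 0 called of 8 tested, with a sum of 403 to 617 in young and 332 to 438 at 24 months, and the T cell genes *Cd3e* and *Cd3g* were each above 0 in 4 of 20 libraries. Melanocyte, nerve and vessel markers had 0 called of 3, 3 and 2 tested. Their sums in young and 24-month libraries were 81.6 to 151 and 60.5 to 124 for melanocytes, 2246 to 3076 and 1902 to 2870 for nerves, and 17.0 to 78.9 and 32.5 to 75.1 for vessels. At 12 months the melanocyte sum ran from 98.2 to 1098, with a median of 138. The part of these markers in the members' values was not tested.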

How the data were processed

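Corneal epithelium of 20 mice was sequenced from the 3′ end. Per the submitters' notes, the authors used cutadapt, STAR (GRCm38), HTSeq and DESeq2. They deposited log2 values, log2(count divided by size factor, plus 1), and an average signal per gene (the authors' mean of normalized counts), which equalled the mean of the library values for 24159 genes and differed for 393. The authors' 3 tables of pairwise comparisons, with their fold changes and p-values, were not used. Every value gave a whole read number within 0.01, with size factors of 0.760 to 1.33.

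The 4 ages were fitted together with limma 3.58.1 (R 4.3.3) on the deposited log2 values with its intensity trend, leaving out genes under 10 normalized counts on average (7.60 to 13.3 reads). Benjamini-Hochberg adjustment covered all 11288 genes. A call needed an adjusted p of at most 0.05 and a 1.2-fold change. The script recovered known changes in simulated data, where no change was made as large as that of *Cdkn2a*. Count intervals were exact and *Gdf15* was tested by exact permutation (252 splits). Python 3.11.15, numpy 2.4.6, pandas 2.3.3, scipy 1.17.1 and matplotlib 3.10.9 were used, with RefSeq and GENCODE positions. Promoter windows were matched for 7 of 10 members.

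The members, lists and tests were chosen with earlier results of these data known. Named genes were the 10 members and, from each pathway list, those called against young or otherwise the 2 with the largest 24-month difference. To these were added the genes with the 5 highest and 3 lowest correlations with *Cdkn2a* and 2 table genes on each side of the locus. *Gm12610* falls within the locus. *Il6*, *Ezh2*, *Bmi1*, *Ets1*, *Cdkn2c*, *Cdkn3* and markers are named as examples of lists. Libraries are separate mice, and replicate numbers did not pair them (correlation of deviations of same-numbered libraries -0.30 to 0.16 in 30 pairs, above 0.1 in 3). Protein sequences were not used here.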

Additional observations from a re-analysis of the deposited data

Results flagged for a closer look

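In 5 of the 40 groups formed by 10 genes and 4 ages, 1 library stood apart from the other 4 by more than 0.71 of the group's range (Dixon's 95% limit for 5 values). For normally distributed values chance gives about 1 such group in 20. They were *Rb1* in young replicate 3 (531 normalized counts, next value 440), *Cdkn1b* in young replicate 1 (1274, next 2064) and in 12-month replicate 5 (2840, next 2191), *Trp53* in 24-month replicate 2 (81.3, next 121), and *Gdf15* in 12-month replicate 5 (3.82 normalized counts from 3 reads, the others at 0). The rate of 1 in 20 does not apply to this *Gdf15* group, where 1 library with any read stands apart from 4 at 0. No group of *Cdkn2a*, *Cdkn2b*, *Ccnd1*, *Mdm2*, *Cdkn1a* or *Lmnb1* held such a library. The cause was not tested.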

How the results depend on the processing

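With the members' count of calls as the result, quantile normalization, scaling by library totals, no fold threshold and a 1.5-fold threshold each left 1 member called at 24, 18 and 12 months against young and 0 between aged groups. At a minimum mean of 50 normalized counts *Cdkn2a* was no longer tested, and 0 members were called at each age. With voom on recovered reads the count was 0 at 24 months, 2 at 18 months (*Ccnd1* and *Cdkn2a*) and 0 at 12 months, and with a pseudocount of 10 it was 2 at 18 months and 0 at 12 months. With no filter, with a pseudocount of 0.1 and with a fit of only the 2 groups compared, 0 members were called at 12 months. The adjusted p of *Cdkn2a* at 12 months was 0.0533 with no filter, 0.0544 and 0.184 with pseudocounts of 0.1 and 10, and 0.457 with 2 groups. Over all genes, 60 were called at 12 months, against 38 with voom and 39 with 2 groups. For 24-month vs. 12-month the 22 calls over all genes became 10 with library totals, 0 with no filter, 35 at a mean of 50 and 11 with 2 groups. With 1 library left out the members' count ranged from 1 to 1 at 24 months, 1 to 2 at 18 months and 0 to 1 at 12 months.

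The replicate number as a block left the members' calls as they were (1, 1 and 1 against young, 0 between aged groups), with the adjusted p of *Cdkn2a* at 0.00162, 0.000610 and 0.0491 at 24, 18 and 12 months. Of all genes it called 85, 72 and 57 in place of 88, 76 and 60 against young, and 11 in place of 22 for 24-month vs. 12-month. In the data 3 of 20 libraries correlated best with a library of their own number.

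The log2 differences below, all of members and comparisons that passed in no setting, changed sign. Between aged groups, alternatives were tabulated for the single values of *Cdkn2a*, *Ccnd1*, *Mdm2* (24-month vs. 12-month) and *Gdf15*. *Trp53* at 24 months was 0.021 with library total scaling, and at 12 months *Cdkn1a* was -0.018 with quantile normalization and *Lmnb1* -0.040 and -0.0044 with quantile normalization and library total scaling. With 1 library left out, the log2 difference from young ranged over -0.033 to 0.15 for *Mdm2* and -0.20 to 0.083 for *Trp53* at 24 months, -0.0029 to 0.17 for *Cdkn1a* and -0.041 to 0.17 for *Cdkn1b* at 18 months, and at 12 months over -0.041 to 0.12 for *Cdkn1a*, -0.14 to 0.11 for *Cdkn2b* and -0.088 to 0.087 for *Lmnb1*. *Ccnd1* ranged over -0.074 to 0.075 for 18-month vs. 12-month. *Gdf15* ranged over -0.35 to 0.50 at 24 months and -0.56 to 0.17 at 18 months against young, and -0.063 to 0.63 for 24-month vs. 18-month. Depth limited *Cdkn2a* in young mice (10 reads in all) and *Gdf15* at every age. The cause of these changes was not tested.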
